A study of Mus musculus with 21 samples.

Results

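Sox9, Sox8, Wt1, Gata4, Gata1, Gata6, Nr5a1 and Nr0b1 are transcription factor genes of the supporting and steroidogenic cells of the testis. They were taken as the rows of the expression table that carry those symbols, 8 of 55573 entries, and each symbol stood on 1 row. All 8 passed the filter of a mean of at least 1 TPM (a level scaled for transcript length and to the same total in each library) that left 18977 genes to be tested. RNA sequencing had been done on 21 whole testes of C57BL6 mice in 4 groups, to learn how loss of Mageb4 affects the transcriptome with and without heat stress. The groups were Mageb4 knockout 72 h after heat shock (n = 5), wild type 72 h after heat shock (n = 4), Mageb4 knockout without heat (n = 6) and wild type without heat (n = 6). The sources used here do not give the heating temperature, its duration, the mice's age, the knockout allele or whether littermates were used. Each library mixes all cell types of the testis, so that for every result below more cells of a type and more RNA per cell cannot be told apart.

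Sertoli cells line the seminiferous tubule and nurse the germ cells, and their identity is set in the embryo when SRY switches on SOX9, which SOX8 partly backs up. WT1, a zinc finger protein, and GATA4 act upstream in the early gonad and stay on in adult Sertoli cells, while NR5A1 (steroidogenic factor, SF-1) drives genes of steroid synthesis and Amh and also marks Leydig cells, the androgen-making cells between the tubules. NR0B1 (DAX1) is an atypical nuclear receptor that represses NR5A1, GATA6 is found in Sertoli and Leydig cells, and GATA1, best known from blood, is made in Sertoli cells of the mouse from a separate first exon.

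On mm10, in the GENCODE M21 annotation, the genes lie on 6 chromosomes. Nr5a1 is at chr2:38692656-38714542 on the minus strand and Wt1 at chr2:105126529-105173616 on the plus strand. Sox9 is at chr11:112782224-112787760 on the plus strand, Gata4 at chr14:63198922-63271692 on the minus strand and Sox8 at chr17:25565892-25570686 on the minus strand. Gata1, at chrX:7959260-7978071 on the minus strand, and Nr0b1, at chrX:86191764-86195947 on the plus strand, are X-linked. All 8 are protein-coding. The promoter bases that the RefSeq tables (GRCm38.p6, the same build) held for the members are shown, 250 bases before the start of transcription, read 5′ to 3′ on the strand of the gene, because these genes moved together. They were at chr17:25570687-25570936 on the minus strand (Sox8), chrX:7967911-7968160 on the minus strand (Gata1) and chrX:86191525-86191774 on the plus strand (Nr0b1). Capitals mark a motif of the SOX family.
Sox8: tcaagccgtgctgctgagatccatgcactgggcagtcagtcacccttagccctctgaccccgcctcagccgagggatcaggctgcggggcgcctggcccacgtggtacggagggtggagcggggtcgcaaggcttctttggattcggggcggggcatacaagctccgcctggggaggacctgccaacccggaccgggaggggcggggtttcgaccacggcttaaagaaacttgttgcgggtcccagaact
Gata1: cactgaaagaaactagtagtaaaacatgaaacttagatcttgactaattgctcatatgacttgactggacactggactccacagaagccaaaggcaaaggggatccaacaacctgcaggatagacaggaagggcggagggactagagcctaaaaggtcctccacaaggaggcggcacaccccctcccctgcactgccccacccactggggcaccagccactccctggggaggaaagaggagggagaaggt
Nr0b1: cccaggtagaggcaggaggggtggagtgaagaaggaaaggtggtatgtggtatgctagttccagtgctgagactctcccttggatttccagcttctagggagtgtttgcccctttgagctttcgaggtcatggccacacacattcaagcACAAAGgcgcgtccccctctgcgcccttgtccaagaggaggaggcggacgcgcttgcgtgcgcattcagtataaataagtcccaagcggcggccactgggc

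The 3 windows were searched on both strands for binding motifs of the members' own families. These were AGATAA or TGATAA as well as AGATAG or TGATAG for GATA factors, AAGGTCA for NR5A1, ACAATG or ACAAAG as well as ACAATA for SOX factors, and GGGGGCG and GTGGGCG for WT1. The single match was ACAAAG in the Nr0b1 window, 101 to 96 bases before the start, and this motif is in 16.5% of the 32817 promoter windows of the same length in the table. Any of the SOX motifs is in 30.5% of those windows, any of the GATA motifs in 26.6%, either WT1 motif in 19.7% and the NR5A1 motif in 4.08%. GC content was 65.6% for Sox8, 54% for Gata1 and 57.2% for Nr0b1, against a median of 52.4% over all windows. The Gata1 window belongs to the start at position 7967910, and the annotation has other Gata1 starts at 7978071 and 7964166. No window at those other starts was searched. Which start gave the Gata1 transcripts of these testes was not tested, so the window shown may not be the one used in Sertoli cells.

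The libraries were comparable in breadth, with 17243 to 18547 entries at 1 TPM or more, and correlated with others of their group at r of 0.971 to 0.994. TPM keeps no depth, so counting error is unknown and precision comes from the replicates alone. Mageb4, the targeted gene, averaged 0.12 TPM in heated knockout, 8.03 TPM in heated wild type, 0.0467 TPM in unheated knockout and 1.80 TPM in unheated wild-type testes. Its highest knockout value, 0.15 TPM, was below its lowest wild-type value, 1.53 TPM, as the labels say. One library stood apart: replicate 3 of heated wild type had a summed level of 3541 TPM over 10 epididymis and rete testis markers, where the rest of its group had 20.5 to 25.1 TPM. Leaving it out changed, among other values, the overlap of the heated genotypes for Nr5a1, the epididymis marker values and some counts of marker and target genes called. It left the counts of the 8 genes called with heat and after heat as they were (all 8).

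All 8 genes were higher after heat in both genotypes, they rose further in wild type, and so heated knockout testes held less of each than heated wild-type testes. In the knockout the mean TPM rose between 1.94-fold (Gata6) and 3.33-fold (Sox9), and in wild type between 4.22-fold (Gata6) and 7.98-fold (Sox9). Without heat the knockout means were 1.20 to 1.33 times those of wild type, and 0 of the 8 passed the test, against 1.25% of all genes called higher. This depended on the fit. With only the unheated groups 6 of the 8 passed (6.19% of all genes called higher), and with array weights 7 (11.3%). Fold values are ratios of mean TPM. Tests are limma's on log2(TPM + 1) over all 21 libraries, with Benjamini-Hochberg adjustment over the 18977 genes, and log2 changes on that scale understate the change of low genes.

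**Figure D1:**
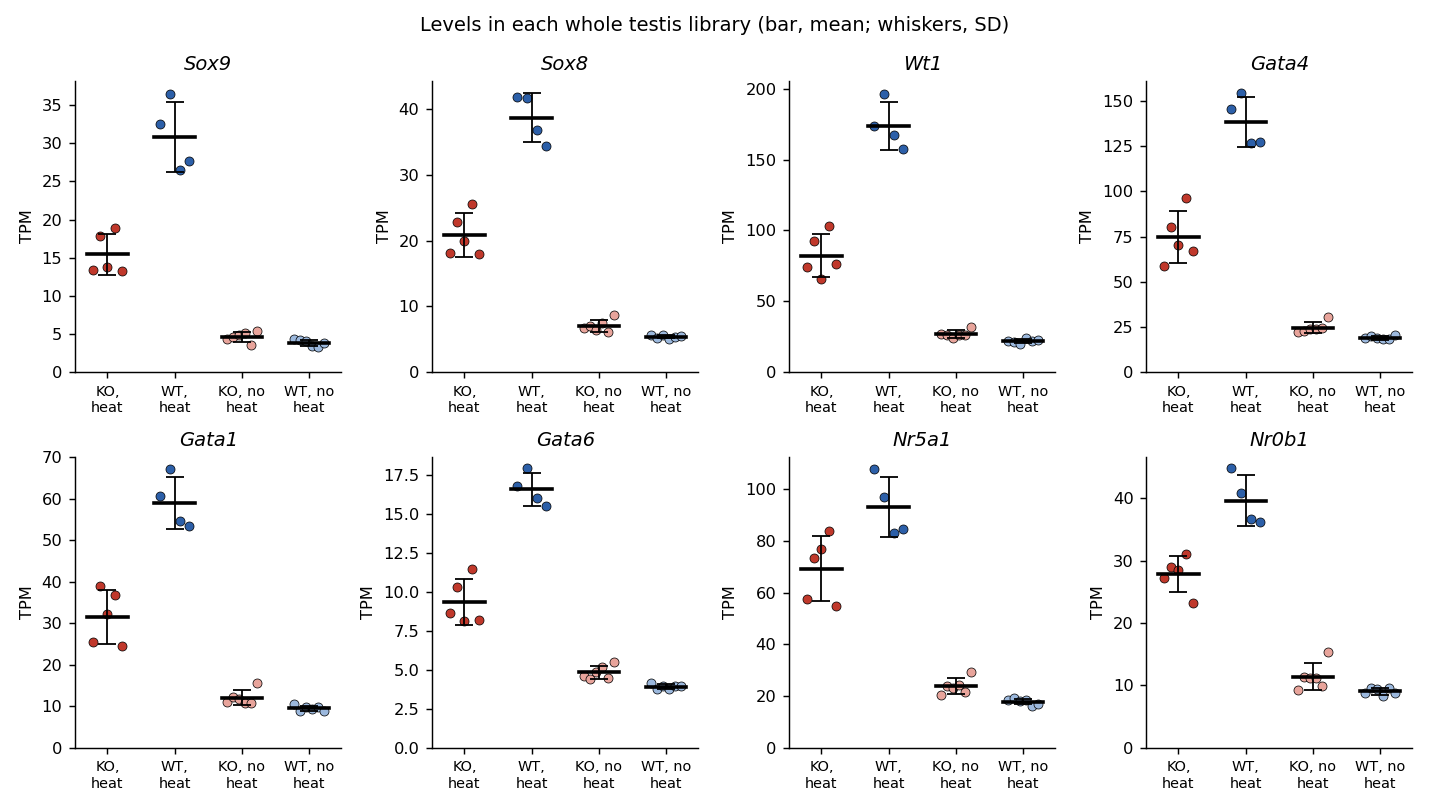
Level of each of the 8 genes in TPM (linear axis from 0) in every library, by group; points are libraries, bars means and whiskers SD. Heated wild-type libraries are highest for each gene, heated knockout libraries lie between them and the unheated ones, and the heated groups overlap for Nr5a1.

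Sox9, the factor that sets Sertoli cell fate, had 13.4, 17.9, 13.8, 18.9 and 13.2 TPM in heated knockout testes, against 32.5, 36.5, 26.5 and 27.6 TPM in heated wild-type testes. Without heat the lowest, median and highest values were 3.58, 4.74 and 5.34 TPM in the knockout and 3.34, 3.90 and 4.38 TPM in wild type. Each heated library was thus above each unheated one, the heated genotypes did not overlap, and the unheated genotypes did. The log2 change with heat was 1.54 ± 0.11 in the knockout (SE, adjusted p = 2.20e-11) and 2.70 ± 0.11 in wild type (adjusted p = 1.41e-15).

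Sox8, its close relative in the Sertoli cell, had 18.0, 22.9, 19.9, 25.5 and 17.9 TPM in heated knockout testes, against 41.9, 41.7, 36.8 and 34.4 TPM in heated wild-type testes. In unheated testes it ran from 6.15 over a median of 6.84 to 8.69 TPM in the knockout and from 4.98 over 5.46 to 5.66 TPM in wild type. The genotypes did not overlap: the knockout libraries lay below the wild-type ones after heat and above them without heat, where the test was not passed. The log2 change with heat was 1.43 ± 0.09 in the knockout and 2.63 ± 0.10 in wild type. A transcript on the opposite strand, 2810468N07Rik, overlaps Sox8 and averaged 8.46, 14.1, 3.00 and 2.60 TPM in heated knockout, heated wild-type, unheated knockout and unheated wild-type testes. The library kit keeps strand, but whether strand was used in counting is not given, so the reads of the pair may be mixed. The same holds for Gata6 and 1010001N08Rik, with 9.01, 18.1, 4.72 and 3.65 TPM in the same order of groups, and for Nr5a1 and Nr5a1os, which did not exceed a group mean of 1.02 TPM.

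Wt1 was the most abundant of the 8 in 20 of the 21 libraries and had the largest log2 change. It had 73.9, 92.8, 65.4, 103 and 76.0 TPM in heated knockout testes, against 174, 197, 167 and 157 TPM in heated wild-type testes. Without heat its lowest, median and highest values were 24.4, 26.3 and 31.8 TPM in the knockout and 19.9, 21.7 and 24.1 TPM in wild type. The 4 groups did not overlap at all. Its log2 change with heat was 1.56 ± 0.09 in the knockout (adjusted p = 2.57e-12) and 2.93 ± 0.10 in wild type (adjusted p = 8.26e-17). Of all genes tested, 2.17% had a larger log2 change in the knockout and 1.82% in wild type.

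Gata4, which acts with WT1 and NR5A1 on gonadal promoters, had 59.0, 80.2, 70.6, 96.5 and 67.0 TPM in heated knockout testes, against 146, 154, 127 and 127 TPM in heated wild-type testes. In unheated testes it had a lowest, median and highest value of 22.0, 23.6 and 30.7 TPM in the knockout and of 18.0, 18.7 and 20.6 TPM in wild type. The groups were again all apart. Heat changed it by 1.55 ± 0.10 on the log2 scale in the knockout and by 2.80 ± 0.11 in wild type.

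Gata1 had 25.6, 39.0, 32.3, 36.8 and 24.5 TPM in heated knockout testes, against 60.6, 67.2, 54.6 and 53.5 TPM in heated wild-type testes. Without heat it had a lowest, median and highest value of 10.8, 11.4 and 15.5 TPM in the knockout and of 8.76, 9.53 and 10.5 TPM in wild type. None of the groups overlapped, and the log2 change with heat was 1.31 ± 0.11 in the knockout and 2.51 ± 0.12 in wild type. Since GATA1 is also a factor of red cells, platelet precursors and mast cells, their markers were summed: 16 genes gave 272 to 798 TPM in heated knockout, 541 to 1427 TPM in heated wild-type, 113 to 326 TPM in unheated knockout and 98.5 to 207 TPM in unheated wild-type testes. Of these 16, 7 were abundant enough to test and 6 rose with heat in the knockout and all 7 in wild type (6 without replicate 3 of heated wild type). Klf1, which defines red cell precursors, averaged 0.306, 0.190, 0.358 and 0.265 TPM in heated knockout, heated wild-type, unheated knockout and unheated wild-type testes. The part of blood cells in the Gata1 values was not tested.

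Gata6, which lies on chromosome 18, had the smallest log2 change with heat of the 8 in each genotype. It had 8.63, 10.3, 8.15, 11.5 and 8.19 TPM in heated knockout testes, against 16.8, 18.0, 16.0 and 15.5 TPM in heated wild-type testes. In unheated testes its lowest, median and highest values were 4.41, 4.73 and 5.48 TPM in the knockout and 3.74, 3.95 and 4.15 TPM in wild type. All groups were apart, and the log2 change with heat was 0.82 ± 0.08 in the knockout and 1.83 ± 0.08 in wild type. In the knockout 18.1% of all genes tested had a larger change, and in wild type 14.5%.

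Nr5a1 had 57.6, 73.3, 77.0, 84.0 and 54.7 TPM in heated knockout testes, against 108, 96.9, 83.1 and 84.8 TPM in heated wild-type testes. Without heat its lowest, median and highest values were 20.4, 23.4 and 29.4 TPM in the knockout and 16.1, 18.2 and 19.2 TPM in wild type. The heated genotypes overlapped for this gene alone of the 8: replicate 4 of heated knockout, at 84.0 TPM, lay above replicate 3 of heated wild type, at 83.1 TPM. That wild-type library is the one with epididymis transcripts, and without it the lowest heated wild-type value was 84.8 TPM, so that the genotypes were apart. Its log2 change with heat was 1.50 ± 0.10 in the knockout and 2.31 ± 0.11 in wild type.

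Nr0b1, the repressor of NR5A1, had 27.2, 29.1, 28.5, 31.2 and 23.3 TPM in heated knockout testes, against 44.9, 40.9, 36.7 and 36.2 TPM in heated wild-type testes. In unheated testes its lowest, median and highest values were 9.34, 11.2 and 15.4 TPM in the knockout and 8.23, 9.10 and 9.58 TPM in wild type, so the unheated genotypes overlapped. Heat changed it by 1.23 ± 0.10 on the log2 scale in the knockout and by 2.01 ± 0.10 in wild type.

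Nr0b1 is also the nearest protein-coding neighbour of the targeted gene: Mageb4 lies at chrX:86250254-86305093 on the minus strand, with a gap of 54306 bases. Between the unheated groups Nr0b1 had a log2 difference of 0.29 ± 0.09 that did not pass the test (adjusted p = 0.104), and with array weights it passed (0.23, adjusted p = 0.0208). Of other entries within 500 kb, Mageb10-ps, a pseudogene that overlaps Mageb4 on the same strand and may share its reads, averaged 1.07 TPM in unheated knockout and 4.73 TPM in unheated wild-type testes (log2 change -1.47, adjusted p = 6.03e-10), and Samt3 averaged 14.0 and 13.8 TPM in the same groups (log2 change 0.02, adjusted p = 0.987).

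Counted over the group, all 8 genes rose with heat in the knockout, where 41.3% of all genes tested rose and 41.5% fell, with adjusted p from 2.57e-12 to 2.01e-09. All 8 also rose in wild type, where 47% of all genes rose and 44.6% fell, with adjusted p from 8.26e-17 to 2.86e-14. The median log2 change of the 8 was 1.47 in the knockout and 2.57 in wild type, against 0.01 over all genes in the knockout and 0.06 in wild type. Heated and unheated libraries were apart for all 8 in each genotype, against 33.9% of genes apart and higher after heat in the knockout and 44.5% in wild type. With so large a share of the transcriptome moving, the count alone says little about these genes. Without replicate 3 of heated wild type, the epididymis-bearing library, all 8 still rose in wild type and the changes lay between 1.85 (Gata6) and 2.94 (Wt1).

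After heat, all 8 were lower in knockout than in wild-type testes, as were 49% of all genes tested, with 34.4% higher. The mean was 0.473 of the wild-type mean for Wt1 and 0.501 for Sox9, and at the other end 0.702 for Nr0b1 and 0.744 for Nr5a1. The log2 differences lay between -1.09 ± 0.10 (Wt1, adjusted p = 6.77e-09) and -0.43 ± 0.12 (Nr5a1, adjusted p = 0.00177), with a median of -0.88 against -0.20 over all genes. Heated knockout and wild-type libraries were apart for 7 of the 8, against 42.5% of genes apart and lower. Without replicate 3 of heated wild type they were apart for all 8, against 44.8% of genes. The difference between the heat effects, knockout minus wild type, was negative and passed the test for all 8, as it did for 47.6% of all genes. It ran from -1.37 ± 0.14 (Wt1, adjusted p = 2.49e-08) to -0.78 ± 0.14 (Nr0b1, adjusted p = 3.27e-05).

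Without heat, 0 of the 8 were called between knockout and wild type by limma, against 1.25% of all genes called higher (237 genes) and 0.0843% called lower (16 genes). With quantile normalization that split became 44 higher and 26 lower. At an unadjusted p under 0.05, 7 of the 8 were higher, against 16.0% of all genes in either direction. The log2 differences were 0.21 ± 0.10 (Sox9, adjusted p = 0.319) to 0.38 ± 0.10 (Nr5a1, adjusted p = 0.0558), and 6 of the 8 genes had no overlap between the genotypes, against 4.33% of genes apart and higher. The call depended on the fit: with only the unheated groups 6 of the 8 passed, against 6.19% of all genes called higher in that fit, and with array weights 7, against 11.3%. Of markers of the somatic cells, 3 of 12 Sertoli and 3 of 16 Leydig genes were called higher in the unheated knockout. Called higher too were 0 of 10 macrophage, 0 of 8 endothelial and 0 of 9 peritubular myoid genes. Replicate 6 of unheated knockout was the highest of its group for all 8 genes. Without it 0 were called, and the difference was 0.17 for Sox9 and 0.32 for Nr5a1.

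**Figure D2:**
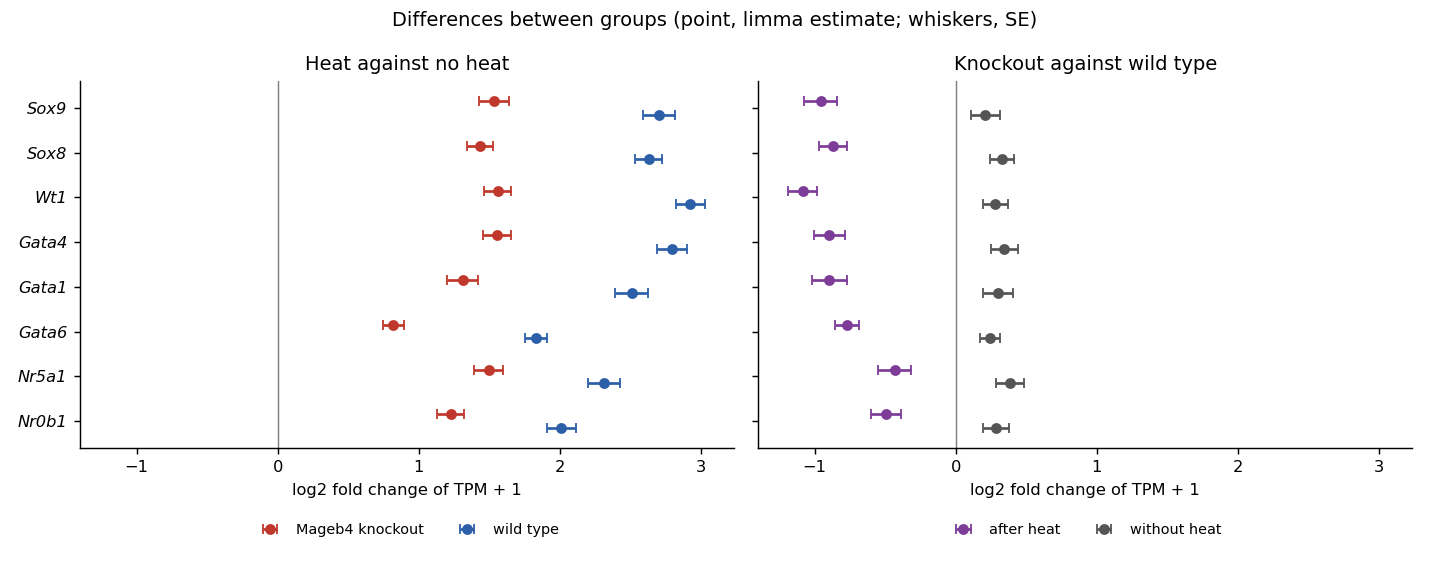
limma estimates of log2 fold change of TPM + 1 (points) with SE (whiskers). The left panel gives heat against no heat in the knockout and in wild type, the right panel knockout against wild type after heat and without heat; all 8 genes have smaller changes in the knockout than in wild type on the left. On the right they lie below 0 after heat and above 0 without heat, where none was called in this fit.

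Markers of Sertoli and Leydig cells rose with heat, as the 8 genes did. Summed over 12 Sertoli cell markers, the level was 6089 to 9308 TPM in heated knockout, 15474 to 20085 TPM in heated wild-type, 2060 to 2749 TPM in unheated knockout and 1641 to 1876 TPM in unheated wild-type testes. All 12 rose with heat in each genotype, with a median log2 change of 1.61 in the knockout and 2.79 in wild type, and 11 were lower in heated knockout than in heated wild type. Of 16 Leydig cell markers 15 rose with heat in each genotype, by a median of 1.22 in the knockout and 1.86 in wild type. In heated knockout 8 were lower than in heated wild type (9 without replicate 3 of heated wild type), near the 49% of all genes called lower. The median difference of these markers was -0.27, against -0.20 over all genes. Their sum was 4610 to 5863 TPM in heated knockout, 5308 to 7342 TPM in heated wild-type, 1591 to 2270 TPM in unheated knockout and 1199 to 1724 TPM in unheated wild-type testes.

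Markers of the later germ cells went the other way, and those of spermatogonia were mixed. Of 13 round spermatid markers 11 fell and 1 rose with heat in the knockout, with a median log2 change of -2.02. In wild type 12 fell and 1 rose, with a median of -4.83. Their sum was 2136 to 2488 TPM in heated knockout, 1223 to 1491 TPM in heated wild-type, 3557 to 3723 TPM in unheated knockout and 3528 to 3895 TPM in unheated wild-type testes. Spata18, the marker that rose, weighed heavily on this sum. It averaged 969 TPM in heated knockout, 978 TPM in heated wild-type, 527 TPM in unheated knockout and 558 TPM in unheated wild-type testes. Of 11 pachytene spermatocyte markers 9 fell in each genotype. Of 9 testable spermatogonia markers 7 rose and 1 fell in the knockout, and 6 rose and 1 fell in wild type, while their summed level was 302 to 349 TPM in heated knockout, 195 to 245 TPM in heated wild-type, 705 to 808 TPM in unheated knockout and 711 to 842 TPM in unheated wild-type testes. Dmrtb1, the spermatogonia marker that fell, made up most of the unheated sums. It averaged 154 TPM in heated knockout, 32.4 TPM in heated wild-type, 677 TPM in unheated knockout and 704 TPM in unheated wild-type testes. Among other somatic cells, all 10 macrophage and all 8 endothelial markers rose in both genotypes, and of 9 peritubular myoid markers 9 rose in the knockout and 8 in wild type. Of the epididymis and rete testis markers 4 could be tested, of which 0 rose in the knockout and 2 in wild type. Without replicate 3 of heated wild type 1 rose in the knockout and 2 in wild type, 2 of the 4 kept a mean of 1 TPM, and the median log2 change in wild type was 0.35, against 2.04 with it. TPM share 1 total in each library, and the part of the fall in germ cell transcripts in the changes of the 8 genes was not tested.

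The same model was also fitted after subtracting, in each library, the mean log2(TPM + 1) of the 12 Sertoli cell markers from every gene, which asks whether a factor changed more or less than those markers. With heat in the knockout, 4 of the 8 were lower relative to the markers, as were 94.2% of all genes, with log2 changes of -0.73 for Gata6 (adjusted p = 2.19e-10), -0.33 for Nr0b1, -0.24 for Gata1 and -0.12 for Sox8. The other four were not called, with Nr5a1 at -0.06, Sox9 at -0.02, Gata4 at 0.0013 and Wt1 at 0.0071. None was higher, against 0.859% of all genes. With heat in wild type 5 were lower, as were 94.8% of all genes: Gata6 (-0.92 ± 0.07, adjusted p = 7.65e-12), Nr0b1 (-0.74 ± 0.08), Nr5a1 (-0.44 ± 0.08), Gata1 (-0.25 ± 0.07) and Sox8 (-0.12 ± 0.06, adjusted p = 0.0477). The other three were not called, at -0.05 ± 0.08 for Sox9, 0.04 ± 0.07 for Gata4 and 0.17 ± 0.08 for Wt1, and 1.63% of all genes were higher. Wt1 was called higher when replicate 3 or 5 of heated knockout or replicate 4 of unheated wild type was left out (0.17 to 0.22). The Sox8 call was lost when any of 11 of the 21 libraries was left out, in either genotype. Without heat 0 of the 8 differed between genotypes on this scale by limma, at -0.09 to 0.08, where 37.2% of all genes were lower. None had an unadjusted p under 0.05.

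Between heated knockout and heated wild type, Nr5a1 (0.47 ± 0.08, adjusted p = 2.32e-05) and Nr0b1 (0.40 ± 0.08, adjusted p = 1.56e-04) were higher in the knockout relative to the Sertoli markers, as were 75.6% of all genes. The other six were not called and lay between -0.19 ± 0.09 (Wt1) and 0.13 ± 0.07 (Gata6). Gata6 was called without replicate 3 of heated knockout (0.17, adjusted p = 0.0311), and Wt1 was called lower when replicate 1, 4 or 5 of heated knockout or replicate 4 of unheated wild type was left out (-0.19 to -0.22). The heat effects themselves differed for the same pair on this scale, by 0.38 ± 0.11 for Nr5a1 (adjusted p = 0.00251) and 0.42 ± 0.11 for Nr0b1 (adjusted p = 0.00149), where 81.3% of all genes were higher. Gata6 was not called (0.19, adjusted p = 0.0618), but it was without replicate 2 (0.21) or 3 (0.23) of heated knockout or replicate 4 of unheated knockout (0.21). The choice of reference list matters. With the Sertoli target genes in place of the markers, 4 of the 8 were higher with heat in wild type (Wt1 by 0.50, Gata4 by 0.37, Sox9 by 0.27 and Sox8 by 0.20), and Gata6 and Nr0b1 were lower. The share of all genes called with that list was not computed, so this count has no background to be set against. With that list the difference of heat effects for Nr5a1 was 0.22 (adjusted p = 0.0774).

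The 16 Leydig cell markers had log2 changes with heat of 0.24 to 1.72 in the knockout and 0.0038 to 2.81 in wild type. A scale relative to these markers was added after the values had been seen, with no other Leydig list tried. Set against the mean of these markers in the same way, most of the 8 were higher with heat. In the knockout 5 were higher (4.14% of all genes), from 0.29 (Sox8) to 0.42 (Wt1). The Sox8 call was lost without replicate 4 of heated knockout (0.20, adjusted p = 0.0849). Gata6 was lower (-0.32, adjusted p = 0.00797), as were 82.8% of all genes. In wild type 6 were higher (10.1% of all genes), from 0.50 ± 0.13 (Nr5a1) to 1.11 ± 0.11 (Wt1), and Gata6 (0.02 ± 0.12) and Nr0b1 (0.20 ± 0.13) were not called. Without heat 0 of the 8 differed between the genotypes by limma, at an adjusted or an unadjusted p under 0.05, where 60.7% of all genes were lower in the knockout. Between heated knockout and heated wild type 6 were lower (25.4% of all genes), from -0.46 (Gata6) to -0.77 (Wt1). Nr5a1 (-0.12 ± 0.14) and Nr0b1 (-0.18 ± 0.14) were not called. The heat effects differed for 5 of the 8 (9.07% of all genes were lower), from -0.49 (Sox9) to -0.69 (Wt1), and Nr5a1 and Nr0b1 were not called. Gata6 was not called either (-0.34, adjusted p = 0.068), but it was when replicate 4 of heated knockout (-0.42, adjusted p = 0.0159), replicate 2 of heated wild type (-0.40) or replicate 3 of unheated wild type (-0.40) was left out.

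**Figure D3:**
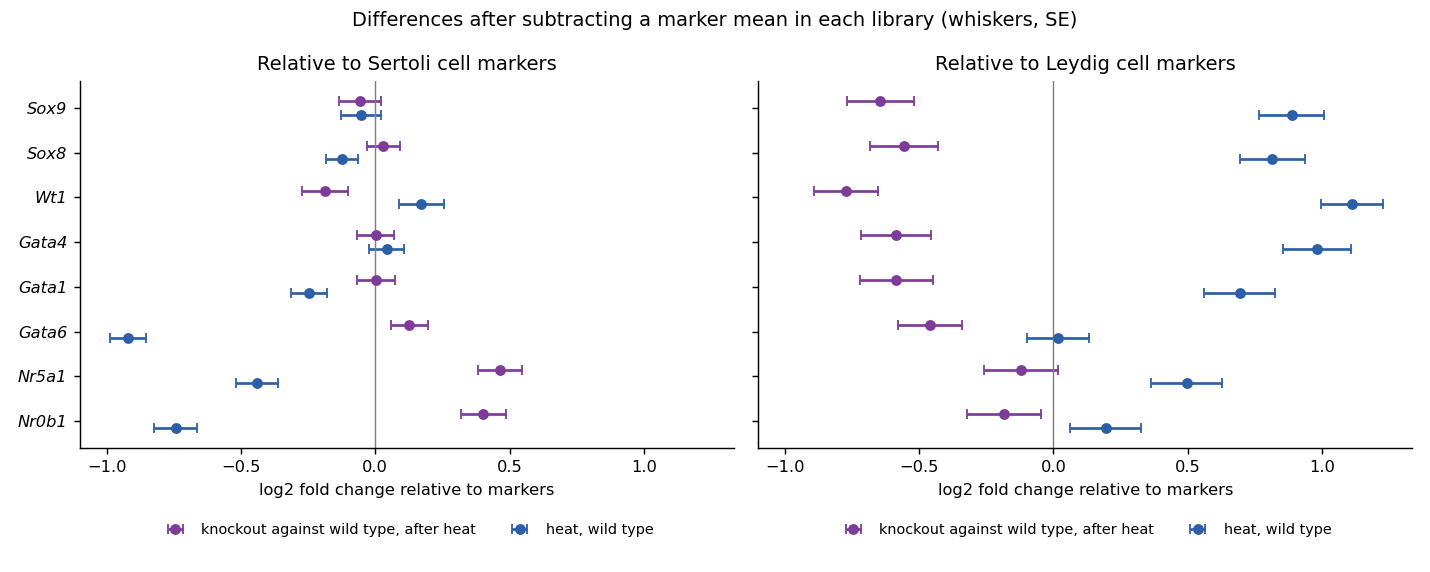
limma estimates (points) and SE (whiskers) of log2 fold change after the mean log2(TPM + 1) of 12 Sertoli cell markers (left) or 16 Leydig cell markers (right) was subtracted in each library. Purple points are heated knockout against heated wild type and blue points heat against no heat in wild type; among the purple points, Nr5a1 and Nr0b1 lie above 0 on the left and near 0 on the right, and the other genes lie near 0 on the left and below 0 on the right.

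On the TPM scale the order of the 8 genes differed between conditions. In unheated testes Wt1 was highest in all 12 libraries, although its range overlapped those of Gata4 and Nr5a1 in the knockout and that of Gata4 in wild type. Gata4 and Nr5a1 followed, with overlapping ranges, then Gata1 and Nr0b1, which overlapped, then Sox8, and last Gata6 and Sox9, which overlapped. In heated knockout Wt1, Gata4 and Nr5a1 had overlapping ranges, as did Gata1, Nr0b1 and Sox8, and Sox8 and Sox9, while Gata6 was apart and lowest. In its replicate 3 Nr5a1 stood above Wt1, at 77.0 against 65.4 TPM. In heated wild type the order was Wt1, Gata4, Nr5a1 and Gata1, all apart, then Nr0b1, Sox8 and Sox9 with overlapping ranges, and Gata6. Ratios within a library show this without a common scale, and they were picked after the values were seen, so no test is given. Sox9 stood at a median of 1.65 times Gata6 in heated knockout and 1.86 times in heated wild type, against 0.980 in unheated knockout and 0.986 in unheated wild type. It exceeded Gata6 in all 9 heated libraries, and in 2 of 6 unheated knockout and 3 of 6 unheated wild-type libraries. Wt1 stood at a median of 1.27 times Nr5a1 in heated knockout and 1.93 times in heated wild type, against 1.10 in unheated knockout and 1.24 in unheated wild type. Sox8 stood at 0.767 times Nr0b1 in heated knockout and 0.978 times in heated wild type, against 0.620 in unheated knockout and 0.602 in unheated wild type.

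**Figure D4:**
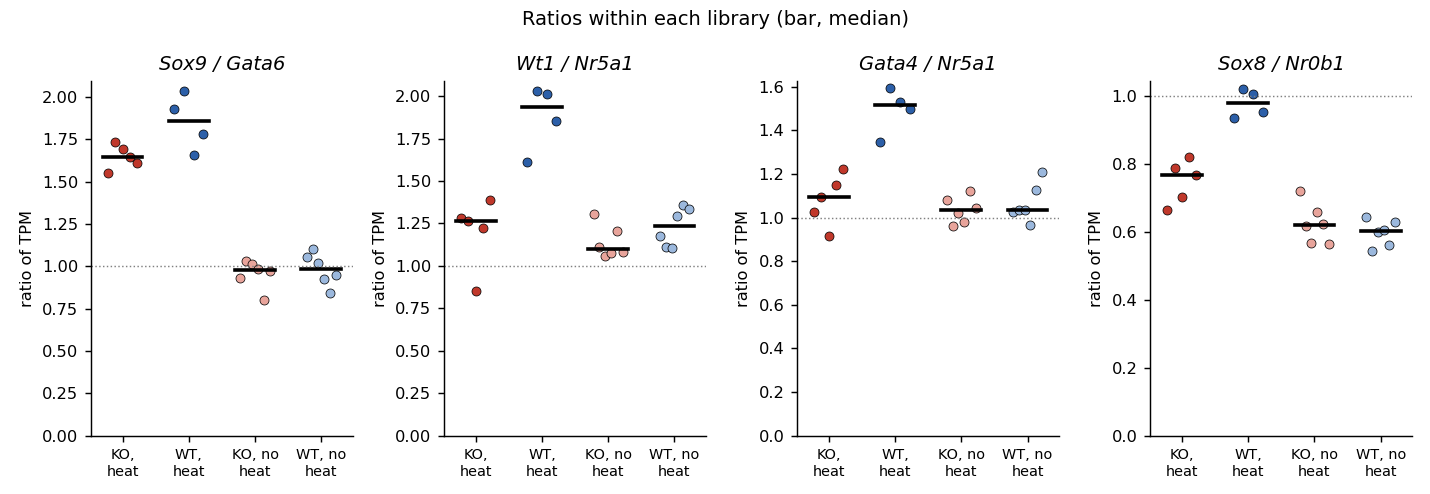
Ratio of TPM of pairs of the genes within each library (points) and group median (bars), with a dotted line at 1. The Sox9 to Gata6 ratio is above 1.5 in every heated library, while the ratios to Nr5a1 and the Sox8 to Nr0b1 ratio are highest in heated wild type.

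Genes that these factors are known to control in the gonad were read beside them, from lists. Of 14 testable Sertoli target genes all 14 rose with heat in each genotype, by a median of 1.43 in the knockout and 2.57 in wild type, and 13 were lower in heated knockout than in heated wild type. Aard averaged 487 ± 103 TPM in heated knockout, 1119 ± 122 TPM in heated wild-type, 129 ± 13.5 TPM in unheated knockout and 102 ± 4.49 TPM in unheated wild-type testes (SD). Cldn11, the claudin of the barrier between Sertoli cells, averaged 220 ± 43.1 TPM in heated knockout, 476 ± 54.4 TPM in heated wild-type, 64.1 ± 8.75 TPM in unheated knockout and 51.4 ± 2.59 TPM in unheated wild-type testes. The cystatin gene Cst9 changed with heat by 1.46 in the knockout and 2.65 in wild type on the log2 scale. The Sertoli ligand gene Dhh changed by 1.49 in the knockout and 2.59 in wild type, and Fshr, the receptor for follicle-stimulating hormone, by 1.57 in the knockout and 2.80 in wild type. The target that did not pass between the heated genotypes was Amh, the hormone gene that SOX9 and NR5A1 switch on in the fetal testis (log2 difference -0.0059, adjusted p = 0.971). Without heat 3 of the 14 were higher in the knockout.

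Of 13 testable steroidogenic target genes, of which the Leydig marker list shares 7, 11 rose with heat in the knockout, with 2 not called, and 12 rose and 1 fell in wild type. Between heated knockout and heated wild type 8 were lower (9 without replicate 3 of heated wild type) and 1 was higher. Of all genes tested 49% were lower and 34.4% higher. Shbg, which encodes a sex hormone carrier, averaged 35.1 ± 8.02 TPM in heated knockout, 78.8 ± 8.52 TPM in heated wild-type, 8.22 ± 1.09 TPM in unheated knockout and 6.30 ± 0.399 TPM in unheated wild-type testes. Cyp19a1, which encodes aromatase, was the exception to the direction of the list: it averaged 4.10 ± 0.910 TPM in heated knockout, 1.04 ± 0.259 TPM in heated wild-type, 3.78 ± 0.594 TPM in unheated knockout and 4.54 ± 1.01 TPM in unheated wild-type testes. Its log2 change with heat was 0.08 in the knockout (adjusted p = 0.569) and -1.43 in wild type (adjusted p = 2.92e-09). The hydroxysteroid dehydrogenase genes Hsd3b1 and Hsd3b6, near-identical copies whose reads may be split, rose by 1.72 (Hsd3b1) and 1.62 (Hsd3b6) in the knockout and by 2.70 (Hsd3b1) and 2.23 (Hsd3b6) in wild type. Insl3, the Leydig cell hormone gene, rose by 1.57 in the knockout and 2.25 in wild type, and the lipoprotein receptor gene Scarb1 by 0.78 in the knockout and 1.39 in wild type.

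Among 24 other transcription regulators of the gonad 14 could be tested, and in each genotype 9 rose with heat, 4 fell and 1 was not called. Their median log2 change was 0.54 in the knockout and 1.20 in wild type. Rhox5, an androgen-driven homeobox gene of Sertoli cells, averaged 74.2 ± 7.88 TPM in heated knockout, 132 ± 14.6 TPM in heated wild-type, 31.2 ± 3.63 TPM in unheated knockout and 24.5 ± 2.06 TPM in unheated wild-type testes, and it was called higher in the unheated knockout (log2 difference 0.34, adjusted p = 0.0456). Etv5, an ETS factor of Sertoli and germline stem cells, rose by 1.17 on the log2 scale in the knockout and by 2.41 in wild type, and Nr2f2, a nuclear receptor of interstitial cells, by 1.13 in the knockout and 2.13 in wild type. Nr4a1, an orphan nuclear receptor that acts in Leydig cells, fell: it averaged 15.8 ± 1.06 TPM in heated knockout, 5.88 ± 0.832 TPM in heated wild-type, 23.3 ± 1.30 TPM in unheated knockout and 24.2 ± 1.55 TPM in unheated wild-type testes. Of other relatives of the 8 genes, Gata2 fell with heat: it averaged 7.10 ± 1.09 TPM in heated knockout, 1.74 ± 0.630 TPM in heated wild-type, 22.4 ± 1.84 TPM in unheated knockout and 18.8 ± 1.68 TPM in unheated wild-type testes. Its log2 change with heat was -1.53 in the knockout (adjusted p = 4.32e-11) and -2.88 in wild type (adjusted p = 9.89e-16). Sry and Foxl2 were near 0, unlike the 8 genes. Sry averaged 0.032, 0.015, 0.0483 and 0.050 TPM and Foxl2, the ovarian factor, 0.024, 0.0225, 0.0133 and 0.005 TPM in heated knockout, heated wild-type, unheated knockout and unheated wild-type testes.

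The 8 genes also varied together between animals. Across the 21 libraries, which share the 4 groups, Pearson's r of log2(TPM + 1) between pairs of the 8 was 0.966 to 0.997 over 28 pairs. After the group mean was taken from each value, it was 0.442 to 0.880 with a median of 0.757. With the mean of the Sertoli cell markers, these deviations had an r between 0.712 (Wt1) and 0.919 (Sox8), and with the Leydig cell markers between 0.166 (Nr0b1) and 0.469 (Sox9). Among the 10772 genes whose mean reached 5 TPM, the levels most like a member's over the libraries were those of Maged1 and Npr1 for Sox9 (r of 0.997 each), Maged1 and Mmp14 for Sox8, Cyfip1 and Gatm for Wt1, Ralb and Fbxo21 for Gata4, Ldhb and Clu for Gata1, Cttn and Itpkb for Gata6, Pgbd5 and Gamt for Nr5a1, and Arl4d and Vasn for Nr0b1. By deviations from the group means they were Msi1 and Brat1 for Sox9, Tgif2 and Maged1 for Sox8, Aplp2 and Cyfip1 for Wt1, Mta2 and Ndst1 for Gata4, Mapkapk2 and Tuba1a for Gata1, Pard6b and Rab31 for Gata6, Pgbd5 and Trim47 for Nr5a1, and Foxp4 and Vasn for Nr0b1, at r of 0.886 to 0.952. These are descriptions of libraries that share tissue make-up, so no p is given.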

How the data were processed

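Libraries of biological replicates were made from whole-testis RNA with a stranded mRNA kit, per the labels' protocols. The submitters' processing notes name STAR and the mm10 build. The sources used here give neither versions nor the annotation nor the quantification tool, so coordinates are from GENCODE M21. The authors deposited TPM, 1 column per library, which keep no depth.

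Values were taken as log2(TPM + 1). Genes whose mean reached 1 TPM entered 1 limma 3.58.1 model of group means (R 4.3.3, variance trend, Benjamini-Hochberg adjustment over 18977 genes, called at 0.05). The code was run on simulated data in which few genes changed, genes varied independently and all groups had the spread of unheated wild type. Such a run cannot show how the model behaves where most genes move, as here. The 5 comparisons were heat in each genotype, knockout against wild type in each condition, and the difference of heat effects. The model was refitted relative to Sertoli and Leydig cell markers. Pseudocounts of 0.1 and 0.5, other filters, scalings, weights and blocks, and leaving out each library were tried. Named genes were the members, up to 4 list genes by largest moderated t in wild-type heat and in the difference of heat effects, the 2 genes most like each member, and neighbours of Mageb4 or of a member. The within-library ratios and the genes Amh, Klf1, Gata2, Sry, Foxl2, Spata18 and Dmrtb1 were picked with their values in view. The members and lists were chosen with earlier results of these data known.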

Additional observations from a re-analysis of the deposited data

Results flagged for a closer look

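The effect of heat differed between the genotypes for all 8 genes by the interaction term of the limma model. By the same term 9024 of the 18977 genes tested (47.6%) were called lower and 6297 higher, so the count alone says little about the 8. The difference of heat effects, knockout minus wild type, was -1.17 for Sox9, -1.20 for Sox8, -1.37 for Wt1, -1.24 for Gata4, -1.20 for Gata1, -1.01 for Gata6, -0.82 for Nr5a1 and -0.78 for Nr0b1 on the log2 scale, with adjusted p from 2.49e-08 to 5.89e-05. Relative to the Sertoli cell markers the difference was 0.38 for Nr5a1 and 0.42 for Nr0b1, where 81.3% of all genes were called higher.

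One unheated knockout library, replicate 6, stood far above the rest of its group by Dixon's criterion for Wt1 (31.8 TPM), Gata4 (30.7 TPM), Gata1 (15.5 TPM) and Nr0b1 (15.4 TPM). These are 4 of 32 sets of a gene and a group examined, where chance gives about 1 in 20, and the 8 genes vary together, so the 4 are not independent. Within heated knockout, replicate 4 was highest for 7 of the 8 genes and replicate 5 lowest for 5.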

How the results depend on the processing

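Under each of the alternatives run, all 8 genes kept their direction and call with heat in the knockout, with heat in wild type, in the knockout after heat and in the difference of heat effects, where run. Median-of-ratios scaling moved the median of all genes by -0.24 with heat in wild type, 0.12 in the knockout after heat and 0.15 in the difference, and Wt1 then rose by 2.69 in wild type. Without a filter 13516 genes rose with heat in wild type.

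In the unheated comparison, genes called higher and lower numbered 237 and 16. They were 444 and 10 with a pseudocount of 0.1, 66 higher with no filter, 6 lower with a filter of 5 TPM, 109 higher with median-of-ratios scaling, 44 and 26 with quantile normalization, 2138 and 210 with array weights, and 1175 and 137 with only the groups compared. Leaving out 1 library gave 15 to 468 higher and 4 to 24 lower. Of the 8 genes, 2 were then called with a pseudocount of 0.1, with 0.5 and with the 5 TPM filter (Sox8 and Nr5a1), 7 with array weights, 6 with only the groups compared, and 0 to 4 when 1 library was left out: 4 without heated knockout replicate 4, 2 without its replicate 1 and 2 without its replicate 5.

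Relative to Sertoli cell markers, values near 0 changed sign. For the Sertoli target genes as the list, no share of all genes called was computed, so the counts of members have no background. With that list, heat in the knockout gave 2 higher and 2 lower, with Sox9 at 0.14, Sox8 at 0.0394 and Nr5a1 at 0.10. Heat in wild type gave 4 higher and 2 lower, with Sox9 at 0.27, Sox8 at 0.20 and Gata1 at 0.0776. The knockout without heat had Gata1 at 0.0086. The knockout after heat gave 3 lower, with Sox8 at -0.13, Gata4 at -0.15, Gata1 at -0.15 and Gata6 at -0.0283. The difference gave 1 higher and 2 lower, with Sox9 at -0.13, Sox8 at -0.16 and Gata1 at -0.16. With the median of the markers Sox9 was at 0.0159 with heat in the knockout and Gata1 at 0.0086 without heat. With a pseudocount of 0.1, an alternative added after seeing the data, Sox9 was at 0.12 and Gata4 at -0.0018 with heat in the knockout, Sox9 at 0.15 and Sox8 at 0.0051 with heat in wild type, Gata1 at 0.0082 without heat, Gata4 at -0.0036 and Gata1 at -0.0137 in the knockout after heat, and Sox9 at -0.0287, Sox8 at -0.0507 and Gata1 at -0.0218 in the difference.

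Leaving out 1 library on that scale gave 0 to 1 member higher with heat in wild type and 0 to 1 lower in the knockout after heat, Wt1 in each case. Gata6 became called higher in the knockout after heat without 1 library (0.17) and in the difference without each of 3 (0.21 to 0.23). Relative to Leydig cell markers, Gata6 became called lower in the difference without each of 3 libraries (-0.40 to -0.42) and with a pseudocount of 0.1 (-0.39), and Sox8 lost its call with heat in the knockout without 1 (0.20). Values ranged as follows. With heat in the knockout: Sox9 -0.0474 to 0.0161, Wt1 -0.0302 to 0.0823 and Gata4 -0.0374 to 0.0279. Without heat: Wt1 -0.0420 to 0.0224, Gata1 -0.0355 to 0.0176 and Nr0b1 -0.0457 to 0.0262. In the knockout after heat: Gata4 -0.0378 to 0.0275 and Gata1 -0.0214 to 0.0252. In the difference: Sox9 -0.00079 to 0.0743, Sox8 -0.0171 to 0.0287 and Gata1 -0.0201 to 0.0377. Relative to Leydig cell markers the ranges were -0.0776 to 0.0776 for Gata6 with heat in wild type, and without heat -0.0730 to 0.0301 for Sox8, -0.0633 to 0.0324 for Gata4, -0.11 to 0.0061 for Gata1 and -0.0251 to 0.0791 for Nr5a1. The cause of these changes was not tested.

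The labels do not say what a shared replicate number means. Deviations of same-numbered libraries correlated at -0.23 to 0.31. The libraries that correlated best with their own number were 0 of 4 for heat in wild type and 0 of 5 for heat in the knockout. They were 1 of 6 for the knockout without heat and 2 of 4 for the knockout after heat. With the replicate block, 173 genes were higher and 8 lower without heat. Relative to the Sertoli markers 1 member was then higher with heat in wild type (Wt1, 0.19) and 1 lower in the knockout after heat (Wt1, -0.21), and Gata4 stood at -0.0186 there. TPM give no depth, so counting error of low genes such as Gata6 and Sox9 is unknown.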
